A study of Mus musculus with 6 samples.

Results

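Transcripts of 7 neutrophil granule and calprotectin genes (S100a8, S100a9, Lcn2, Ngp, Camp, Ltf and Mpo) were examined in the lungs of hSRY-ON and hSRY-OFF mice. Every probe annotated with one of these symbols was taken, which gave 10 probes of the 25697 on the array and 7 of its 18138 gene symbols. All mice were males of the strain labelled FVB (FVB/N in the study's methods) at postnatal day 6. They came from a line with a single copy of the Signalox-hSRY transgene at the H11 locus, from which human SRY, the testis-determining gene, can be driven by the CAG promoter, which is active in most cell types, once Cre recombinase has acted. In hSRY-ON mice this recombination was brought about by Cre from the eggs of Ddx4-Cre mothers, and the mice chosen for the arrays did not carry the Ddx4-Cre transgene themselves. hSRY-OFF is the study's name for mice with the transgene not recombined, but its text also calls the comparison mice controls, so whether those on the arrays carried the transgene rests on their label. Each group had 3 arrays (Illumina MouseRef-8 v2.0 BeadChips), 1 per lung RNA sample, which the study calls biological triplicates.

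Neutrophils are short-lived white cells that mature in the bone marrow and carry antimicrobial proteins in granules made at successive stages. Myeloperoxidase fills the azurophil granules of the earliest stage. Lactoferrin, cathelicidin, neutrophilic granule protein and lipocalin 2 belong to the specific granules of the next stage, while S100a8 and S100a9 form calprotectin, the abundant cytosolic protein of mature neutrophils and monocytes. Lcn2 is also made by inflamed airway epithelium, and Ltf by glandular epithelium. All of these samples were whole lung, so a larger number of such cells and more RNA of a gene per cell cannot be told apart in any value below.

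Values are normalized log2 intensities, in which a difference of 1 is a doubling. A probe was called detected where its deposited detection p-value was under 0.05, and those detected on 3 or more arrays entered the fit (kept probes). Between 13191 and 14134 probes were detected per array. Of the 10 member probes, 6 were kept, 1 each for S100a8, S100a9, Lcn2, Ltf, Ngp and Camp, and all 6 were detected on all 6 arrays. The other 4 (3 for Mpo and another for Ltf) did not pass and are given as values only.

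The region around the annotated start of each gene (250 bases before to 50 after) is shown for 4 members. S100a8 and S100a9 encode the calprotectin pair, while Ngp and Ltf are granule genes of which one overlapped between groups and the other did not. The sequences are from RefSeq for GRCm38.p6, a reference of another strain (C57BL/6J). They run 5′ to 3′ along the gene's strand. S100a8 is chr3:90668821-90669120 (+), S100a9 is chr3:90695672-90695971 (-), Ngp is chr9:110419558-110419857 (+) and Ltf is chr9:111019042-111019341 (+). Capitals mark matches, on either strand, to the C/EBP letters TTGCNNAA, the PU.1 letters GAGGAA and the TATA box letters TATAAA.
S100a8: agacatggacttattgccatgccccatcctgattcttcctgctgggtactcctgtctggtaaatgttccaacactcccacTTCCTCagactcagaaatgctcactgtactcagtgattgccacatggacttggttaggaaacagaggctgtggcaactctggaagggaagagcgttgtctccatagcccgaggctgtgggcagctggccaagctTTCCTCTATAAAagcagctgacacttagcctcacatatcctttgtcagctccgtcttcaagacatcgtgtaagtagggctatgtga
S100a9: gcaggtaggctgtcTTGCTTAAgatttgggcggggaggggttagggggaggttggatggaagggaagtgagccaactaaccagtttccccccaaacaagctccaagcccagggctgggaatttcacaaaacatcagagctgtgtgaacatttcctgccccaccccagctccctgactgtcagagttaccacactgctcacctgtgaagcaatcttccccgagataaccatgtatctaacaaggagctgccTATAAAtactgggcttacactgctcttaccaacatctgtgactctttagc
Ngp: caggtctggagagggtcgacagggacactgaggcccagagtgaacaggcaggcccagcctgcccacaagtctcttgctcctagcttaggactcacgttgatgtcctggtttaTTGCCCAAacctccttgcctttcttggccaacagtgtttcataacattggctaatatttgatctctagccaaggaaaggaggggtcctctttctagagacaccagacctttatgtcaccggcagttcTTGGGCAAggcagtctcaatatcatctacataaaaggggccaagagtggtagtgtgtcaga
Ltf: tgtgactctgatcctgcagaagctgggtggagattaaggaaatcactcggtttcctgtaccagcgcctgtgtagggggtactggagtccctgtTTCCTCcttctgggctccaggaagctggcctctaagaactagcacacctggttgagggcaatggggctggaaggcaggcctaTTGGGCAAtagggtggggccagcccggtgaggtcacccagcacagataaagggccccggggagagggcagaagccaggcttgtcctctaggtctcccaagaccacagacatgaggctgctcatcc
C/EBP factors and PU.1 are the transcription factors best known for driving granule and calprotectin genes in the granulocyte lineage. The C/EBP letters were found in 4 of the 7 member promoters, those of S100a9, Lcn2, Ngp (2 matches) and Ltf, against 10.8% of all 32851 promoters of this length. PU.1 letters were found in 4 of 7 (S100a8, Lcn2, Ltf and Mpo), against 28.3% of all promoters. In S100a8 the second PU.1 match, on the minus strand, ended where TATAAA began, with TATAAA starting at position -30 from the annotated start. In S100a9 TATAAA began at the first base of the annotated transcript. A kappaB motif, searched in the same way, matched none of the 7 promoters and 4.79% of all promoters, and the Camp promoter matched none of the 4 motifs. In the RefSeq gene order S100a8 and S100a9 are neighbours on chromosome 3 with 0 protein-coding genes between them. Camp, Ngp and Ltf lie on chromosome 9, with 8 protein-coding genes between Camp and Ngp and 20 between Ngp and Ltf.

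Among the 6 kept member probes, 4 rose in hSRY-ON lungs and 0 fell in the limma fit (adjusted p under 0.05), and 0 were lower at an unadjusted p under 0.05. Over all 13841 kept probes 26.9% were called, 13.6% higher and 13.3% lower. The 4 that rose were S100a8, S100a9, Lcn2 and Ltf, and these were also the 4 whose groups did not overlap. Over all kept probes 46.6% did not overlap between groups, 22.4% with hSRY-ON higher and 24.1% with it lower. The median change of the 6 probes was 1.49, beside -0.035 for all kept probes. For Ngp and Camp the groups overlapped and the intervals of the change included 0. With 3 arrays a group an exact two-sided permutation test of a single probe cannot go below p = 0.1, so the calls rest on the limma fit across all kept probes.

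**Figure D1:**
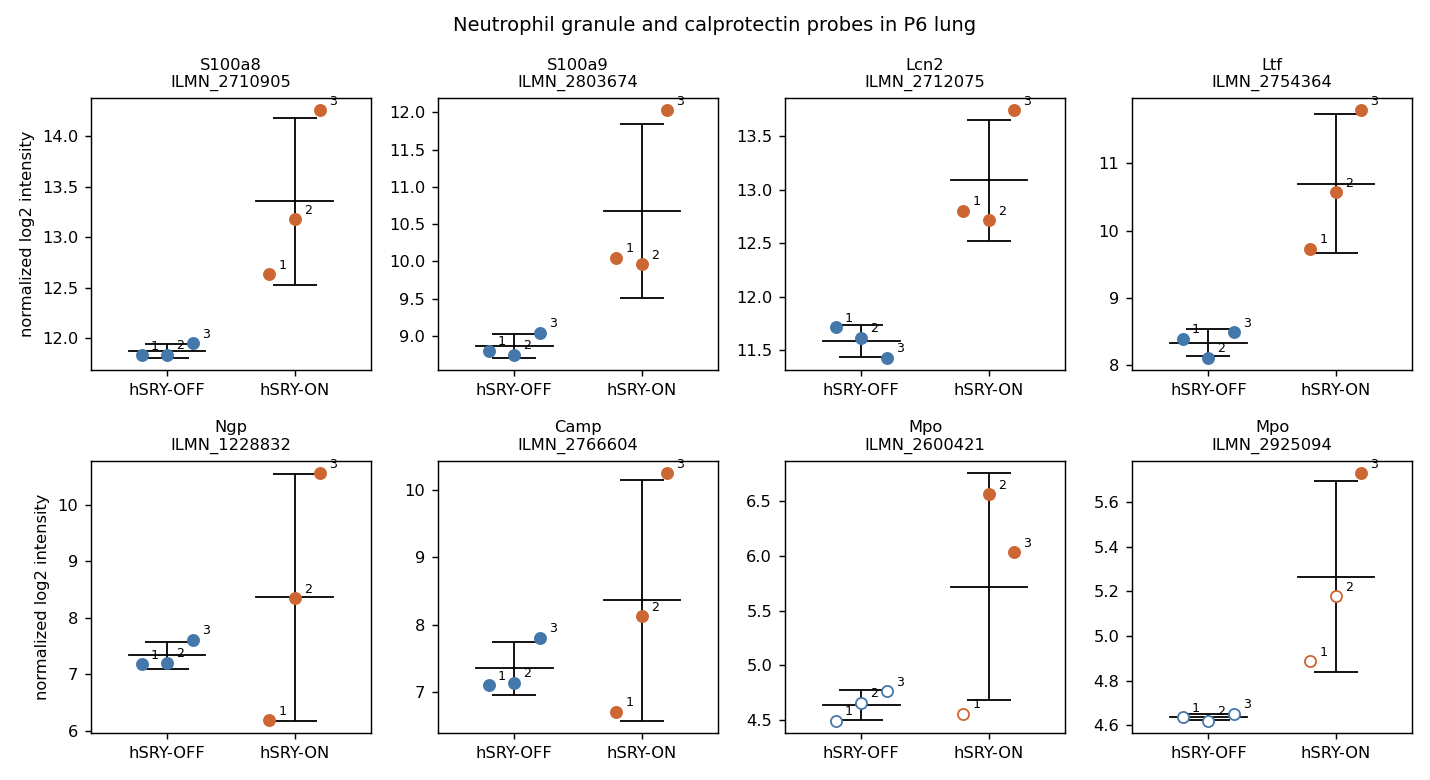
Normalized log2 intensity (y axis, a separate scale in each panel that does not start at 0) of 8 of the 10 member probes on the 3 hSRY-OFF and 3 hSRY-ON arrays. Points are arrays labelled with their replicate number, open where the probe was not detected, and lines show the mean and SD; hSRY-ON replicate 3 was the highest array for all 6 kept probes, and hSRY-ON replicate 1 lay below every hSRY-OFF array for Ngp and Camp.

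S100a8 (ILMN_2710905), the smaller calprotectin subunit, stood at 11.83, 11.84 and 11.95 in hSRY-OFF replicates 1 to 3 and at 12.63, 13.18 and 14.26 in hSRY-ON replicates 1 to 3. The hSRY-OFF arrays lay within 0.12 of each other, while the hSRY-ON arrays spread over 1.63 and all lay above them. The mean rose from 11.87 ± 0.068 to 13.35 ± 0.83 (SD, n = 3 each). The change was 1.48 (SE 0.37, 95% interval 0.60 to 2.36), or 2.80-fold, with an adjusted p of 0.0272 by limma. The call was lost without hSRY-OFF replicate 1 (adjusted p = 0.0859), hSRY-OFF replicate 2 (0.0853), hSRY-OFF replicate 3 (0.0704) or hSRY-ON replicate 2 (0.0628). Without hSRY-ON replicate 3, the highest array, the change was 1.03 and remained called (adjusted p = 0.0112).

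S100a9 (ILMN_2803674), the larger partner subunit, stood at 8.80, 8.75 and 9.04 in hSRY-OFF lungs and at 10.05, 9.96 and 12.03 in hSRY-ON lungs. Replicates 1 and 2 of hSRY-ON were close to each other, and replicate 3 lay 1.98 above the next array. The groups did not overlap. The mean rose from 8.87 ± 0.16 to 10.68 ± 1.17, a change of 1.81 (SE 0.52, 95% interval 0.59 to 3.04) or 3.51-fold (limma adjusted p = 0.0410). Without hSRY-ON replicate 3 the change was 1.14 (adjusted p = 0.00367). The call was lost without any 1 of hSRY-OFF replicates 1 (adjusted p = 0.114), 2 (0.119) or 3 (0.0890), and where no detection filter was used (0.0677).

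Lcn2 (ILMN_2712075), lipocalin 2, a protein that withholds iron from bacteria by binding their siderophores, stood at 11.72, 11.61 and 11.43 in hSRY-OFF lungs. Its values in hSRY-ON lungs were 12.80, 12.71 and 13.74, all above the hSRY-OFF arrays. Of the 6 kept probes it had the narrowest spread among hSRY-ON arrays, 1.03. The mean rose from 11.59 ± 0.15 to 13.09 ± 0.57, a change of 1.50 (SE 0.27, 95% interval 0.85 to 2.15) or 2.83-fold (limma adjusted p = 0.00958). It was the member called under each of the 18 alternatives, with adjusted p from 0.00318 to 0.0394.

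Ltf (ILMN_2754364), lactoferrin, an iron-binding protein of specific granules, had the largest change of the 6 kept probes. It stood at 8.39, 8.11 and 8.50 in hSRY-OFF lungs and at 9.73, 10.57 and 11.79 in hSRY-ON lungs, with no overlap. The mean rose from 8.33 ± 0.20 to 10.70 ± 1.03, a change of 2.36 (SE 0.47, 95% interval 1.26 to 3.46) or 5.15-fold (limma adjusted p = 0.0122). The call was lost without hSRY-OFF replicate 2 (adjusted p = 0.0502). Without hSRY-ON replicate 3 the change was 1.81 (adjusted p = 0.00611). The other Ltf probe (ILMN_2889020) was not detected on any array and lay between 4.58 and 5.01, so the rise rests on 1 of its 2 probes.

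Ngp (ILMN_1228832), neutrophilic granule protein, a cystatin-related protein of specific granules, stood at 7.18, 7.21 and 7.61 in hSRY-OFF lungs. In hSRY-ON lungs it stood at 6.19, 8.35 and 10.57, so replicate 1 lay below all hSRY-OFF arrays and replicates 2 and 3 above them. The change was 1.03 (SE 0.96, 95% interval -1.22 to 3.29; limma adjusted p = 0.451). Without hSRY-ON replicate 1 the change was 2.13 and was called (adjusted p = 0.0389), and without hSRY-ON replicate 3 it was -0.066 (adjusted p = 0.945).

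Camp (ILMN_2766604), the precursor of the cathelicidin antimicrobial peptide, followed the same order of arrays within hSRY-ON. It stood at 7.10, 7.14 and 7.81 in hSRY-OFF lungs and at 6.70, 8.13 and 10.25 in hSRY-ON lungs. The change was 1.01 (SE 0.80, 95% interval -0.87 to 2.89; limma adjusted p = 0.378). It was not called without hSRY-ON replicate 1 (1.84) or without hSRY-ON replicate 3 (0.067). Whether the changes of Ngp and Camp differed from those of the 4 called genes was not tested.

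**Figure D2:**
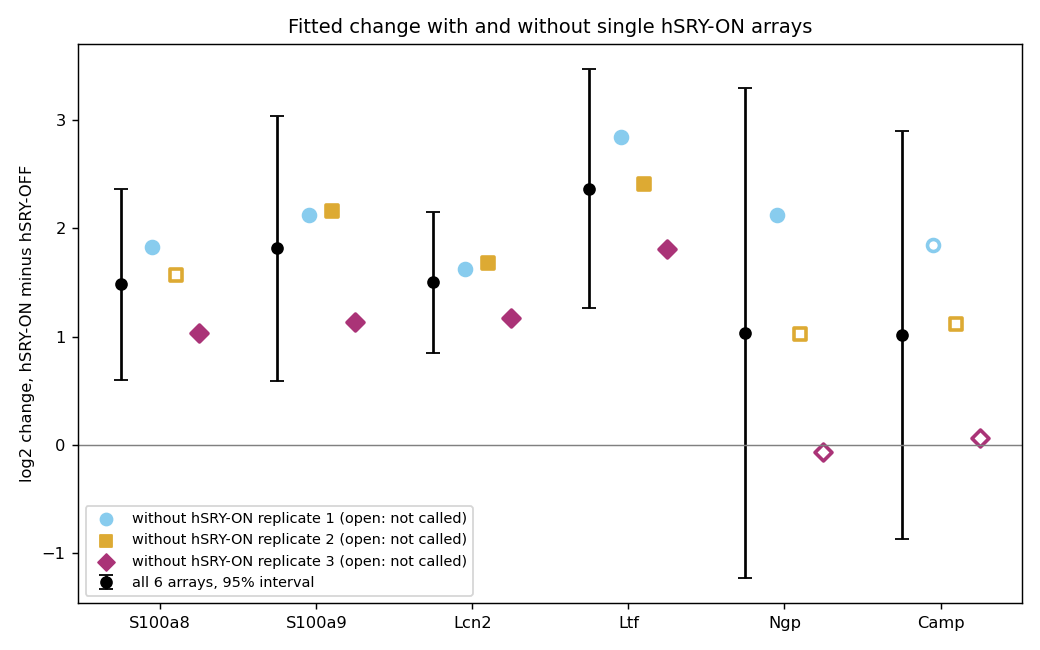
Fitted log2 change, hSRY-ON minus hSRY-OFF (y axis), of the 6 kept member probes with all 6 arrays (black, bars are 95% intervals) and with each hSRY-ON array left out (colours). Filled coloured markers had a limma adjusted p under 0.05 and open ones did not; without hSRY-ON replicate 3 the changes of S100a8, S100a9, Lcn2 and Ltf were 1.03, 1.14, 1.17 and 1.81, while those of Ngp and Camp were -0.066 and 0.067.

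Mpo, myeloperoxidase, which makes hypochlorous acid in azurophil granules, was not detected in hSRY-OFF lungs by any of its 3 probes. ILMN_2600421 stood at 4.50, 4.66 and 4.77 in hSRY-OFF lungs and at 4.56, 6.56 and 6.03 in hSRY-ON lungs, where it was detected on replicates 2 and 3. ILMN_2925094 stood at 4.64, 4.62 and 4.65 against 4.89, 5.18 and 5.73, and ILMN_2719256 at 4.81, 4.91 and 4.76 against 5.01, 4.80 and 5.47. Both of these were detected on hSRY-ON replicate 3 alone. When all 25697 probes were fitted without a filter, none of the 3 was called (limma adjusted p = 0.204, 0.0968 and 0.424), and 1 had an unadjusted p under 0.05 (ILMN_2925094, 0.0183).

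The hSRY-ON arrays differed among themselves in these genes more than the hSRY-OFF arrays did. hSRY-ON replicate 3 was the highest of the 6 arrays for 6 of 6 kept member probes. Over all kept probes it was the highest for 14.5%, fewer than hSRY-ON replicate 2 (23.4%) or hSRY-ON replicate 1 (16.7%). Its distance above the next array ran from 0.94 for Lcn2 to 2.21 for Ngp. A distance of at least 0.94 was held by 47 of the 13841 kept probes (0.34%), a limit taken from the members themselves. The SD among hSRY-ON arrays was above that of 91.2% of kept probes for Lcn2, 97.6% for S100a8, 99.3% for Ltf and 99.7% for S100a9, and Ngp and Camp had higher percentiles still.

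Measured from the mean of the hSRY-OFF arrays, hSRY-ON replicate 1 was higher by 0.76 for S100a8, by 1.18 for S100a9, by 1.22 for Lcn2 and by 1.40 for Ltf. On that same array Ngp stood at -1.14 and Camp at -0.65. In replicate 3 the range over the 6 genes was 2.16 to 3.45. The profiles of the 6 genes across the arrays, each centred on its own mean, were compared by their root mean square difference on the log2 scale. S100a8 was nearest to Lcn2 (0.25) and then S100a9 (0.34), and Ngp was nearest to Camp (0.28). Ltf was nearest to S100a9 (0.41), and was farther from Camp (0.82) and Ngp (0.95). These differences are descriptions over 6 arrays.

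By the same measure, the kept probes of other genes most like the mean profile of S100a8 and S100a9 were EG408196 (0.064), Apoa1 (0.13), Itih4 (0.18) and Stfa1 (0.21). EG408196, now named Csta3, encodes a protease inhibitor of the stefin A family. It stood at 6.67, 6.51 and 6.81 in hSRY-OFF lungs and at 7.58, 7.94 and 9.36 in hSRY-ON lungs, and rose by 1.63 (limma adjusted p = 0.0309). Apoa1, the main protein of high-density lipoprotein, stood at 4.68, 4.75 and 4.94 in hSRY-OFF lungs, where it was not detected, and at 5.97, 5.84 and 7.38 in hSRY-ON lungs, at least 2.15-fold higher. It entered the fit through the hSRY-ON arrays alone, so no test is given for it. Itih4, an acute-phase plasma protein made mainly by liver, rose by 1.66 (adjusted p = 0.0283), and Stfa1 changed by 1.54 and was not called (adjusted p = 0.0768). Nearest to the mean profile of Ngp, Camp and Ltf were Retnlg (0.23), AA467197 (0.28), Olfm4 (0.35) and EG433016 (0.36). Retnlg, a secreted resistin-like protein of neutrophils, stood at 9.05, 8.56 and 8.89 against 9.12, 10.35 and 12.21, and its change of 1.73 was not called (adjusted p = 0.106). Olfm4, a specific granule protein, changed by 1.24 (adjusted p = 0.136) and AA467197 by 1.32 (adjusted p = 0.155), while EG433016, now named Cstdc4, rose by 1.87 (adjusted p = 0.0487). The calls of EG408196, Itih4 and EG433016 were lost without any 1 of the hSRY-OFF arrays, and those of EG408196 and EG433016 also without hSRY-ON replicate 2. Without background correction the changes of EG408196 and Itih4 were 0.95 and 1.07. Because all of these genes were picked for a profile like that of the members, their direction is not independent of them. The stefin A genes are near-identical copies in the mouse, so which of them each probe reads is uncertain.

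**Figure D3:**
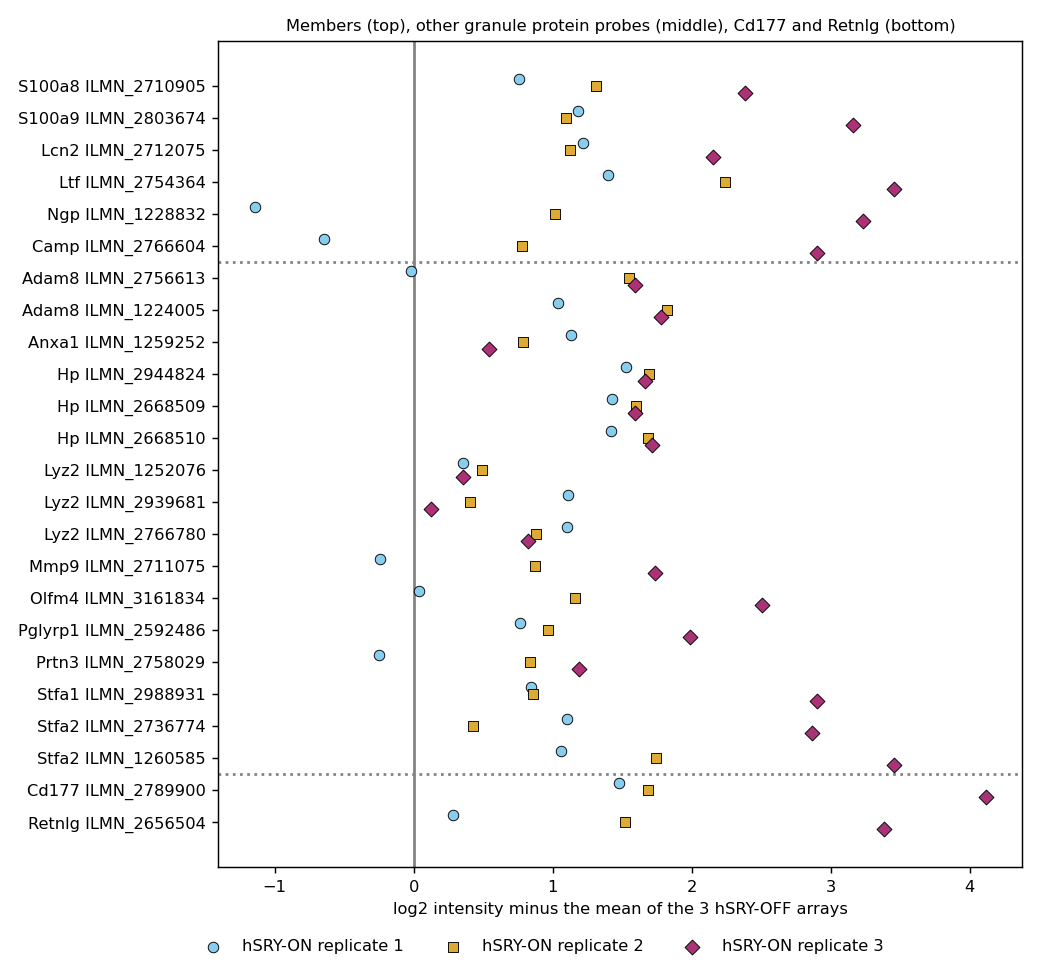
Normalized log2 intensity of each hSRY-ON array minus the mean of the 3 hSRY-OFF arrays (x axis) for the 6 kept member probes, the 16 kept probes of the other granule and abundant neutrophil proteins, Cd177 and Retnlg. Each marker is 1 array; the hSRY-ON replicate 3 marker lies farthest right for all 6 members, for Pglyrp1, for the Stfa probes and for Cd177 and Retnlg, while the 3 markers of each Hp probe lie close together. The same marker lies farthest left for Anxa1 and for the Lyz2 probes ILMN_2766780 and ILMN_2939681.

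Among 18 further granule and abundant neutrophil proteins, 17 were on the array and 10 had a kept probe. Of their 16 kept probes, 9 rose and 0 fell, beside 13.6% and 13.3% of all kept probes. The 9 were probes for 6 genes, since Hp and Lyz2 each gave more than 1. The median change of the 16 was 1.24, and at an unadjusted p under 0.05 the counts were 12 and 0. Of the 16, 1 probe for Lyz2, among the 9, was not detected in hSRY-OFF lungs and so entered through the hSRY-ON arrays alone. Without hSRY-ON replicate 1, 14 were called, without hSRY-ON replicate 3, 10, and without hSRY-OFF replicates 1, 2 or 3 the counts were 5, 5 and 6. The rise was largest for Stfa2 (ILMN_1260585), at 2.09 or 4.24-fold (adjusted p = 0.0311). Its call was lost without any 1 of hSRY-OFF replicates 1 to 3 or hSRY-ON replicate 2. Hp, haptoglobin, which binds free haemoglobin and is stored in neutrophil granules as well as made by liver and lung, rose by 1.63 (ILMN_2944824, adjusted p = 0.000603). On that probe the 3 hSRY-ON arrays stood at 14.31, 14.47 and 14.44, an SD of 0.086, and hSRY-ON replicate 3 was not the highest. On Hp probe ILMN_2668509 they stood at 13.35, 13.52 and 13.51. On ILMN_2668510 they stood at 13.51, 13.77 and 13.80, where hSRY-ON replicate 3 was the highest. Adam8, a membrane protease of granulocytes, rose by 1.55 on 1 dim probe (adjusted p = 0.00481), or by 0.55 without background correction (adjusted p = 0.00784), while its other kept probe was not called.

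Several defining granule and neutrophil genes were at or near background. Elane, Mmp8 and both probes of Cxcr2 were not detected on any array. Ctsg was not detected in hSRY-OFF lungs and was detected on hSRY-ON replicates 2 and 3. Prtn3, an azurophil granule protease, stood at 5.36, 4.80 and 5.55 against 4.98, 6.07 and 6.43 (change 0.59, adjusted p = 0.284), and Mmp9 at 5.96, 6.31 and 6.01 against 5.85, 6.97 and 7.83 (change 0.79, adjusted p = 0.230). In both of these hSRY-ON replicate 1 was the lowest hSRY-ON array and replicate 3 the highest. Csf3r, the receptor for granulocyte colony-stimulating factor, had 1 kept probe of 5, with a change of 0.43 (adjusted p = 0.312). Ly6g was not analysed here.

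Of 9 kept probes of neutrophil surface receptors, 4 rose and 0 fell, beside 13.6% and 13.3% of all kept probes. Their median change was 1.29, and 5 of the 9 were higher and 1 lower at an unadjusted p under 0.05. Without any 1 of hSRY-OFF replicates 1 to 3 the count called was 2. Clec4d, a C-type lectin receptor of myeloid cells, rose by 2.93 or 7.61-fold (adjusted p = 0.0005), or by 1.48 without background correction. Cd177, a surface glycoprotein of neutrophils, stood at 5.59, 5.995 and 5.60 in hSRY-OFF lungs and at 7.20, 7.41 and 9.84 in hSRY-ON lungs. It rose by 2.42 (adjusted p = 0.0336), or by 1.58 without hSRY-ON replicate 3 (adjusted p = 0.00259), and lost its call without any 1 of the hSRY-OFF arrays. Without background correction its change was 1.24 and was not called (adjusted p = 0.0645). Fpr2, a receptor for formylated peptides, rose by 1.70 (adjusted p = 0.00297). The NADPH oxidase, which makes superoxide in phagocytes, had 4 kept probes. Of these 2 were called higher and 0 lower (median 0.60), also at an unadjusted p under 0.05. Cybb of this list was not detected on any array. Ncf4 rose by 1.33 (adjusted p = 0.0147), a call lost without hSRY-OFF replicate 1, hSRY-OFF replicate 2 or hSRY-ON replicate 2. The other was Ncf1, which stood at 5.14, 5.07 and 5.01 in hSRY-OFF lungs, where it was not detected, and at 5.84, 6.30 and 5.50 in hSRY-ON lungs, at least 1.50-fold higher. Ncf1 entered the fit through the hSRY-ON arrays alone and was not called without background correction (0.23). A further Ncf1 probe (ILMN_1228585) was not detected on any array. The count called was 0 without hSRY-OFF replicate 1 or 2, 1 without hSRY-OFF replicate 3 or hSRY-ON replicate 2, and 4 without hSRY-ON replicate 1.

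Another list held chemoattractants and cytokines that draw out or sustain neutrophils. Of its 11 kept probes 2 were called higher and 2 lower (median 0.12), beside 13.6% and 13.3% of all kept probes. Without hSRY-OFF replicates 1, 2 or 3 the probes called numbered 2, 1 and 1 in all. Il1b, the interleukin-1 beta gene, rose by 1.19 (adjusted p = 0.0101). Cxcl1, a ligand of the neutrophil chemokine receptor Cxcr2, rose by 0.81 (adjusted p = 0.0178), a call lost without hSRY-OFF replicate 2 or 3. Without background correction the changes of Il1b and Cxcl1 were 0.74 and 0.46. Both probes that fell were for Ppbp, a platelet chemokine, and the larger of the falls was by 0.71 (adjusted p = 0.0178), a call lost without any 1 of the hSRY-OFF arrays. Csf3, the growth factor for granulocytes, had 1 kept probe, with a change of 0.12 (adjusted p = 0.753). Of 8 kept probes of granulocyte transcription factors 0 were called by limma, with 3 higher and 0 lower at an unadjusted p under 0.05 (median 0.41), and 3 were called without hSRY-ON replicate 1. Cebpe, the factor of specific granule genes, was detected on 1 array by 1 of its 2 probes.

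Among the other S100 genes, 1 of 7 kept probes rose and 1 fell (median -0.0091), beside 13.6% and 13.3% of all kept probes. In all, 1 was called without any 1 of the hSRY-OFF arrays or hSRY-ON replicate 2. S100a1 rose by 0.51 (adjusted p = 0.0258), a call lost in 4 of 6 fits that left out 1 array (each hSRY-OFF array and hSRY-ON replicate 2), and S100a16 fell by 0.60 (adjusted p = 0.00947). Of 10 kept probes for receptors of the member proteins 1 rose and 0 fell (median 0.18), or 3 and 0 at an unadjusted p under 0.05. It was for Tlr4, which binds calprotectin, and the rise was 0.88 (adjusted p = 0.0207), or 0.48 without background correction, with the call lost without hSRY-OFF replicate 1, hSRY-OFF replicate 2 or hSRY-ON replicate 2. Without hSRY-ON replicate 1, 2 of the 10 were called. Both probes of Ager, the receptor for advanced glycation end products and an alveolar type I marker, differed by 0.11 and -0.029 and were not called.

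Iron handling genes, a list that holds partners of lipocalin 2 and lactoferrin in limiting iron, had 8 of 13 kept probes called higher and 0 lower (median 0.61), or 9 and 0 at an unadjusted p under 0.05. Without hSRY-OFF replicates 1, 2 or 3 the calls were 1, 2 and 4. Of the 8 probes, 4 were for Slc11a1, the phagosomal metal transporter of macrophages and neutrophils, which rose by 1.39 on the probe of largest change (adjusted p = 0.0146), or 0.72 without background correction, a call lost without hSRY-OFF replicate 1 or 3. Hmox1, the haem-degrading enzyme haem oxygenase 1, stood at 7.32, 7.47 and 7.65 against 11.21, 9.66 and 9.28, so that its highest array was hSRY-ON replicate 1. It rose by 2.56 (adjusted p = 0.00895). Slc40a1, the iron exporter ferroportin, rose by 0.85 (adjusted p = 0.0187), a call lost without hSRY-OFF replicate 1 or 2. The shares called over all kept probes were 13.6% higher and 13.3% lower. Of 9 kept probes of NF-kappaB and STAT3 responsive genes, 2 rose and 0 fell (median 0.28), the same counts as at an unadjusted p under 0.05. These were Saa3, an inducible acute-phase protein, at 7.72, 7.62 and 7.65 against 9.83, 9.41 and 12.03 (2.76, adjusted p = 0.0184), and Nfkbia, which rose by 0.90 (adjusted p = 0.0214). Both calls were lost without any 1 of the hSRY-OFF arrays.

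**Figure D4:**
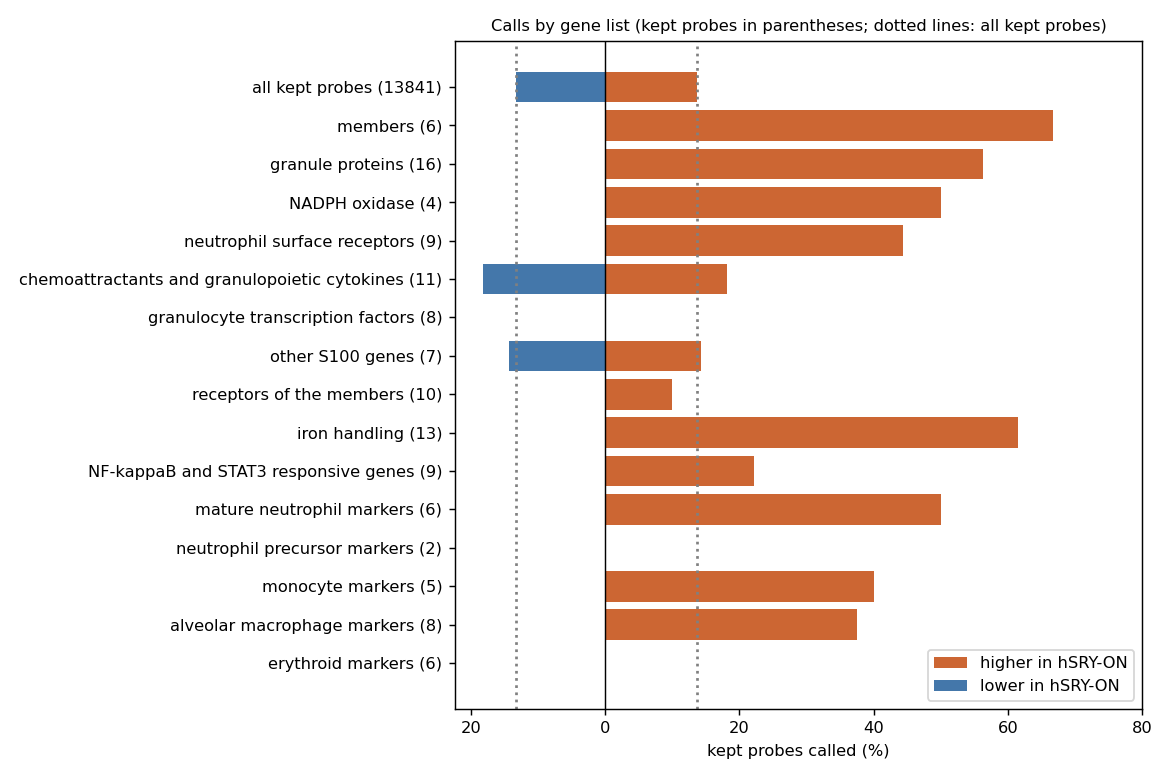
Share of kept probes (x axis, %) called higher (right of 0) or lower (left of 0) in hSRY-ON lungs by limma, for all kept probes, the members and 14 lists, with the number of kept probes in parentheses. Dotted lines mark the shares over all kept probes (13.6% higher, 13.3% lower); the members had 4 of 6 probes higher, granule proteins 9 of 16 (1 of the 9 not detected in hSRY-OFF lungs) and iron handling genes 8 of 13.

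Markers of the cell types that whole lung could hold were set beside the members, and their part in the results was not tested. Of 9 mature neutrophil markers, 6 had a kept probe. Of the 6 kept probes 3 rose and 0 fell, beside 13.6% and 13.3% of all kept probes. Of these 3, S100a8 and S100a9 are members and the third was Cd177. Without hSRY-OFF replicates 1, 2 or 3, 0 of the 6 were called by limma, and without hSRY-ON replicate 1, 5 were. The 4 marker probes that are not members (Csf3r, Mmp9, Cd177 and Retnlg) had summed linear intensities of 615.6, 497.4 and 585.4 in hSRY-OFF lungs and of 749.4, 1584 and 5925 in hSRY-ON lungs. These sums did not overlap between groups, while 46.6% of single kept probes did not overlap either. Retnlg made up most of each sum, and its change was not called (limma adjusted p = 0.106), nor were those of Csf3r and Mmp9. In these sums hSRY-ON replicate 3 was the highest, as it was for the members, whose sums were 7690 to 7973 and 15480 to 43604. Neutrophil precursor markers had 2 kept probes, of which 0 were called by limma and 0 had an unadjusted p under 0.05 (1 was called without hSRY-ON replicate 1), with sums of 41.5 to 53.2 and 35.7 to 107.1. Pan-leukocyte markers rose on 1 of 6 kept probes, that of Laptm5 (0.75, adjusted p = 0.0356, lost without any 1 of the hSRY-OFF arrays), with a median change of -0.014, and summed to 14832 to 16808 and 14553 to 23120. Ptprc, which defines leukocytes, was not detected on any array.

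The list taken as monocyte markers rose on 2 of 5 kept probes (F13a1 by 1.49, adjusted p = 0.00258, and Ly6c1 by 0.87, adjusted p = 0.0266). This stands beside 13.6% called higher over all kept probes. The 5 changes ran from -0.27 to 1.49 (median 0.41), with 4 above 0, and Ccr2 was not detected on any array. The monocyte list had sums of 4135 to 5179 and 7933 to 11422. Ly6c1 was the brighter, with means of 11.91 in hSRY-OFF and 12.78 in hSRY-ON lungs against 9.07 and 10.55 for F13a1. The sums therefore mostly followed Ly6c1, and whether its signal came from monocytes was not tested. Alveolar macrophage markers rose on 3 of 8 (Marco, Cd68 by 1.33 and Mrc1 by 1.11, limma adjusted p = 0.0135 and 0.0105 for the last 2). The 8 changes ran from -0.60 to 2.56 (median 0.39), with 6 above 0. Siglecf and Fabp4 of this list were not detected on any array. The sums of the list were 4012 to 4412 and 6422 to 10295. Without any 1 of the hSRY-OFF arrays, or without hSRY-ON replicate 2, the call of Ly6c1 was lost, as was that of Cd68 without hSRY-OFF replicate 1 or 2. Marco was highest on hSRY-ON replicate 1 and lowest of the hSRY-ON arrays on replicate 3, at 8.70 and 7.02. Airway epithelial markers, of interest for Lcn2, rose on 3 of 5 kept probes, with sums of 53987 to 56133 and 65210 to 79877. They were led by Scgb3a2 (1.52, adjusted p = 0.00166, or 0.97 without background correction) and Cyp2f2 (1.18, adjusted p = 0.00296), and Scgb1a1, the defining club cell gene, differed by 0.0065 (adjusted p = 0.972).

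The counts of the next lists stand beside shares of 13.6% called higher and 13.3% called lower over all kept probes. Erythroid markers, a measure of blood in the tissue, had 6 kept probes of which 0 were called by limma and 2 were higher at an unadjusted p under 0.05 (2 were called without hSRY-ON replicate 2), with sums of 60325 to 70472 and 64812 to 74853. Platelet markers fell on 2 of 7 kept probes, both for Ppbp, and rose on 0, and 0 were called without any 1 of the hSRY-OFF arrays. Mast cell and basophil markers rose on 1 of 7 (Tpsb2, under its older name Mcpt6, by 0.94, a call lost in 5 of 6 fits that left out 1 array, all but that without hSRY-ON replicate 1) and fell on 1 (Mcpt4, a change of -1.32, or of -0.54 without background correction). The eosinophil marker Prg2 was the 1 kept probe of its list and changed by -1.40 (adjusted p = 0.0568), with an unadjusted p under 0.05. It was called without hSRY-ON replicate 3. Markers of lung tissue rose on 2 of 9 kept probes, both for Sftpb, and fell on 0, or 1 at an unadjusted p under 0.05. Without hSRY-OFF replicate 1 or 3, 1 was called. A list of 12 liver genes, Apoa1 and Itih4 among them, was added after those genes had been seen near calprotectin, so its values are a description with no count of calls. Ahsg, Fga and Apoa1 were detected on 3 hSRY-ON arrays and 0 hSRY-OFF arrays, and Apoa2 on 2 and 0. Itih4 and Serpina1b were detected in both groups. Alb, Ttr, Apoh, Fgb, Cyp3a11 and Serpina3k were not detected on any array.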

How the data were processed

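Lung RNA of 3 hSRY-OFF and 3 hSRY-ON mice was measured on 6 Illumina BeadChips, and groups and replicate numbers were taken from the sample labels. The authors deposited, for each probe and array, an intensity (linear scale, not normalized) with its detection p-value, which is the share of negative control probes brighter than the probe. The median deposited intensity ran from 177.1 to 204.0 per array. Bead summary software is not given in the sources used here. Columns of the authors' own normalized values or comparisons were not used here. No 2 of the 15 pairs of arrays held identical values.

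The study's methods name TCC, a count method, and the submitters' processing notes name limma. Because the values are intensities, limma 3.58.1 in R 4.3.3 was used. Its neqc steps were applied, with background inferred from detection p-values, an offset of 16, quantile normalization between arrays and log2. The offset compresses changes of dim probes, and quantile normalization removes overall shifts between arrays. The filter (detection p under 0.05 on 3 or more arrays) passed 13841 of 25697 probes. lmFit and eBayes were run without covariates, with Benjamini-Hochberg adjustment over all kept probes and a threshold of 0.05. The procedure was tested on simulated data in which both groups had the spread of the hSRY-OFF arrays. It was therefore not tested for the wider spread that the members had among hSRY-ON arrays. The number of arrays limits precision. Each p-value sets the difference between groups against a spread pooled over both groups and drawn towards that of all kept probes. A probe not detected in 1 group was given as a bound, the detected group's mean against a floor averaged over the other group's arrays, where the floor is the dimmest detected probe, or this probe where it is brighter.

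The members and gene lists were chosen with earlier results of these data known. All member probes are given. In each list of roles (granule proteins, NADPH oxidase, surface receptors, chemoattractants, transcription factors, other S100 genes, receptors of the members, iron handling, NF-kappaB and STAT3 responsive genes) and of cell type markers, at most the 3 genes of largest change were named among those called without overlap, with 9 neutrophil genes (Ly6g, Csf3r, Cxcr2, Elane, Prtn3, Ctsg, Cebpe, Mmp8 and Mmp9) and the 4 nearest profiles to each of 2 member sets whatever their result. Csf3, Ager, Slc11a1's further probes, Scgb1a1, Prg2, Ptprc and the liver genes were named after their values were seen. Older array symbols were matched through RefSeq synonyms. Promoters are from RefSeq. The alternatives changed the background correction, the normalization, the filter or the threshold, or used a variance trend, array weights, the replicate number as a block and leaving out each array.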

Additional observations from a re-analysis of the deposited data

Results flagged for a closer look

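Probes outside the fit were looked at for signal in hSRY-ON lungs that was absent from the hSRY-OFF arrays. For 4 probes of member or listed genes, 2 of the 3 hSRY-ON arrays had a detection p under 0.05 and 0 of the 3 hSRY-OFF arrays did. These were Mpo ILMN_2600421, Ctsg ILMN_1220236, Csf3r ILMN_2806180 and Cd177 ILMN_1225233. For Mpo, Ctsg and Csf3r the detected arrays were hSRY-ON replicates 2 and 3, at 6.56 and 6.03 for Mpo, 5.74 and 6.01 for Ctsg, and 5.68 and 5.45 for Csf3r. For Cd177 they were hSRY-ON replicates 1 and 3, at 5.72 and 7.16. None of these probes was tested in the fit of kept probes.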

How the results depend on the processing

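Of 18 alternatives, the member probes called stayed at 4 or 3 except at an adjusted p under 0.01, where 1 was called (Lcn2) and S100a8 (1.48), S100a9 (1.81) and Ltf (2.36) no longer passed, and where 1 array was left out, where 1 to 5 were called. Calls over all probes were 1326 at an adjusted p under 0.01 and 1652 to 4442 with 1 array left out. With 1 array left out, the log2 change ran from 1.03 to 1.83 for S100a8, 1.14 to 2.16 for S100a9, 1.17 to 1.68 for Lcn2, 1.81 to 2.84 for Ltf, 0.067 to 1.84 for Camp and -0.066 (without hSRY-ON replicate 3, a reversed sign) to 2.13 for Ngp. Without a detection filter S100a9 (1.81) was not called (adjusted p = 0.0677). The cause of these shifts was not tested. Of the alternatives for the other named genes, 627 kept direction and call, 107 lost the call and 10 gained it. Of the counts called per list, 271 stayed within 1.5 times of the count in the report and 107 did not.

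The labels do not say whether the replicate numbers pair the samples. Arrays of the same number correlated at -0.11, 0.096 and -0.093 in their deviations from the group means. For arrays of different number the range was -0.088 to 0.16. With 3 arrays a group, each centred on its group mean, these correlations cannot decide whether the numbers pair the samples. With the number as a block 2655 probes were called, and the same 4 member genes were called.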
